A study of Mus musculus with 9 samples.

Results

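The transcripts of 10 genes of the integrated stress response were followed in murine Tc17 cells treated with dimethyl fumarate (DMF). They are Eif2ak4, Atf4, Atf5, Ddit3, Cebpb, Cebpg, Trib3, Ppp1r15a, Asns and Chac1, taken by their gene symbol from the 41388 genes of the RNA-Seq table. The normalized counts of all 10 averaged 10 or more over the libraries, the minimum for a test, which 11599 genes reached. A normalized count is the number of reads of a gene divided by a factor for the depth of the library.

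Tc17 cells are CD8+ T cells that produce IL-17. Naive CD62L+CD44-CD8+ T cells were isolated from lymph nodes and spleens of wild-type C57BL/6 mice aged 8 to 12 weeks. They were primed for 48 h with 5 µg/ml anti-CD3, 0.5 µg/ml anti-CD28, 50 U/ml IL-2, 0.5 ng/ml TGF-β, 30 ng/ml IL-6 and 5 µg/ml anti-IFN-γ, which all groups shared. All cultures contained the solvent DMSO at 0.2%. Ctrl cultures received nothing else, the DMF group 20 µM DMF, and the DMF + GSH group the same dose of DMF combined with 50 µM reduced glutathione, with 3 libraries per group. Replicate 1 of each group belongs to preparation batch 1 and replicates 2 and 3 to batch 2. The study states, for its experiments in general, at least 3 independent biological replicates. The sources used here do not say whether these replicates came from separate mice, so the p-values measure the spread between these cultures.

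In the integrated stress response, kinases that sense a lack of amino acids, unfolded protein, viral RNA or a lack of heme phosphorylate the initiation factor eIF2. This slows protein synthesis in general while the mRNA of the transcription factor ATF4 is translated better, because short upstream reading frames no longer keep ribosomes from its coding sequence. ATF4 then pairs with C/EBP proteins and switches on genes for amino acid synthesis, uptake and tRNA charging, and also genes that end the response. DMF binds thiols and lowers cellular glutathione, and added GSH was used in the study to ask which DMF effects depend on it.

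Because ATF4 acts on promoters, the windows from 250 bases upstream to 50 bases downstream of each RefSeq start (GRCm38.p6) were searched on both strands for its C/EBP-ATF composite element, TGATGNAA. All 10 genes had a window, and Trib3, Chac1 and Asns had the element, against 4.51% of 27025 genes with a window. The cyclic AMP response element TGACGTCA, which binds CREB and ATF dimers, was present for 1 of the 10 genes, Ppp1r15a, against 2.03% of all genes. These matches share no bases with one another. The 4 matches are shown as a description. Known elements are among the reasons why genes are called ATF4 targets, so these shares are not independent of how the 10 genes were chosen. Bases outside the windows were not searched. Each line gives 30 bases on the strand of the gene, 5′ to 3′, with the element in capitals. Positions count from the RefSeq start, which for Trib3 and Asns differs from the start of the gene position given below. The element of Trib3 lies upstream of that gene position, and that of Asns within it.
Asns, chr6:7693214-7693243, minus strand, element at positions -23 to -16 from the start: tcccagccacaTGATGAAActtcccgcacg
Trib3, chr2:152344028-152344057, minus strand, element at positions 15 to 22, read on the other strand: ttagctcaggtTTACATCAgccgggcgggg
Chac1, chr2:119351038-119351067, plus strand, element at positions -193 to -186, read on the other strand: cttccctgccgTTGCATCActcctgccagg
Ppp1r15a, chr7:45526262-45526291, minus strand, cyclic AMP response element at positions -12 to -5: cgcctctccggTGACGTCAgcacagcgccg

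For Chac1, the whole upstream stretch outside annotated exons is given, since Chac1 had the largest fall of the 10 genes when GSH was added to DMF. It spans chr2:119350992-119351228 on the plus strand (positions -250 to -14). The capitals mark the composite element and, at positions -250 to -243, TGACGCAA, a variant of the cyclic AMP response element that 0.49% of all 32851 windows contained.
Chac1 upstream: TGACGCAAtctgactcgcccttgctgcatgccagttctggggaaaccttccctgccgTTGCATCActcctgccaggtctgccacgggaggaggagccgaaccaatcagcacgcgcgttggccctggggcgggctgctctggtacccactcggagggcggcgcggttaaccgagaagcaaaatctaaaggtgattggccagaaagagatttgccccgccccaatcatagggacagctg
A match is a description of the letters, and binding of ATF4 was not measured here.

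The libraries held between 7671772 and 14511926 reads assigned to genes. The cells carried the markers of their label. The summed normalized counts of Cd3e, Cd8a and Cd8b1 lay between 16182 and 21311 in the 9 libraries, and Cd4 did not exceed 4.40. The IL-17 cell markers Il17a, Il17f and Ccr6 were present in all groups, with sums of 2915 to 4522 in Ctrl, 759 to 1946 with DMF and 2995 to 5001 with DMF + GSH. Ctrl replicate 3 stood apart as the shallowest library and by its sum of the myeloid markers Lyz2, Itgax and Csf1r, which was 185 there and at most 22.3 in the other 8 libraries. Results are therefore also given without this library. In bulk RNA, a change in the share of cells that express a gene and a change in RNA per cell cannot be told apart.

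Values were compared with limma on log2(normalized count + 1), so that each difference is a log2 fold change (log2FC) on that scale. The batch fit has group and preparation batch as terms. The paired fit has the replicate number in place of the batch, since libraries with the same number varied together. Genes were called at an adjusted p under 0.01 (Benjamini-Hochberg over the 11599 genes), and "rose" and "fell" are used for called genes only.

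With DMF, Atf4, Asns and Trib3 rose against Ctrl in the paired fit, 1.44-fold, 1.77-fold and 1.49-fold, whereas Ddit3, Cebpg and Ppp1r15a had log2FC estimates between -0.11 and 0.12. The batch fit called 0 of the 10 genes, with 4 of the 10 at an unadjusted p under 0.05, beside 4811 of all 11599 genes. edgeR on the recovered reads with the batch called 0 as well, and DESeq2 called 2 (Atf4 and Asns). The share of all genes called higher with DMF was 3.6% in the batch fit, 17.6% in the paired fit and 8.29% with DESeq2, against which the 3 of 10, and the 2 of 10, are to be read. The share called lower was 3.6% and 15.6% in the batch and the paired fit, with 0 of the 10 genes. The median log2FC of the 10 genes was 0.48, beside 0.0052 over all genes tested.

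**Figure D1:**
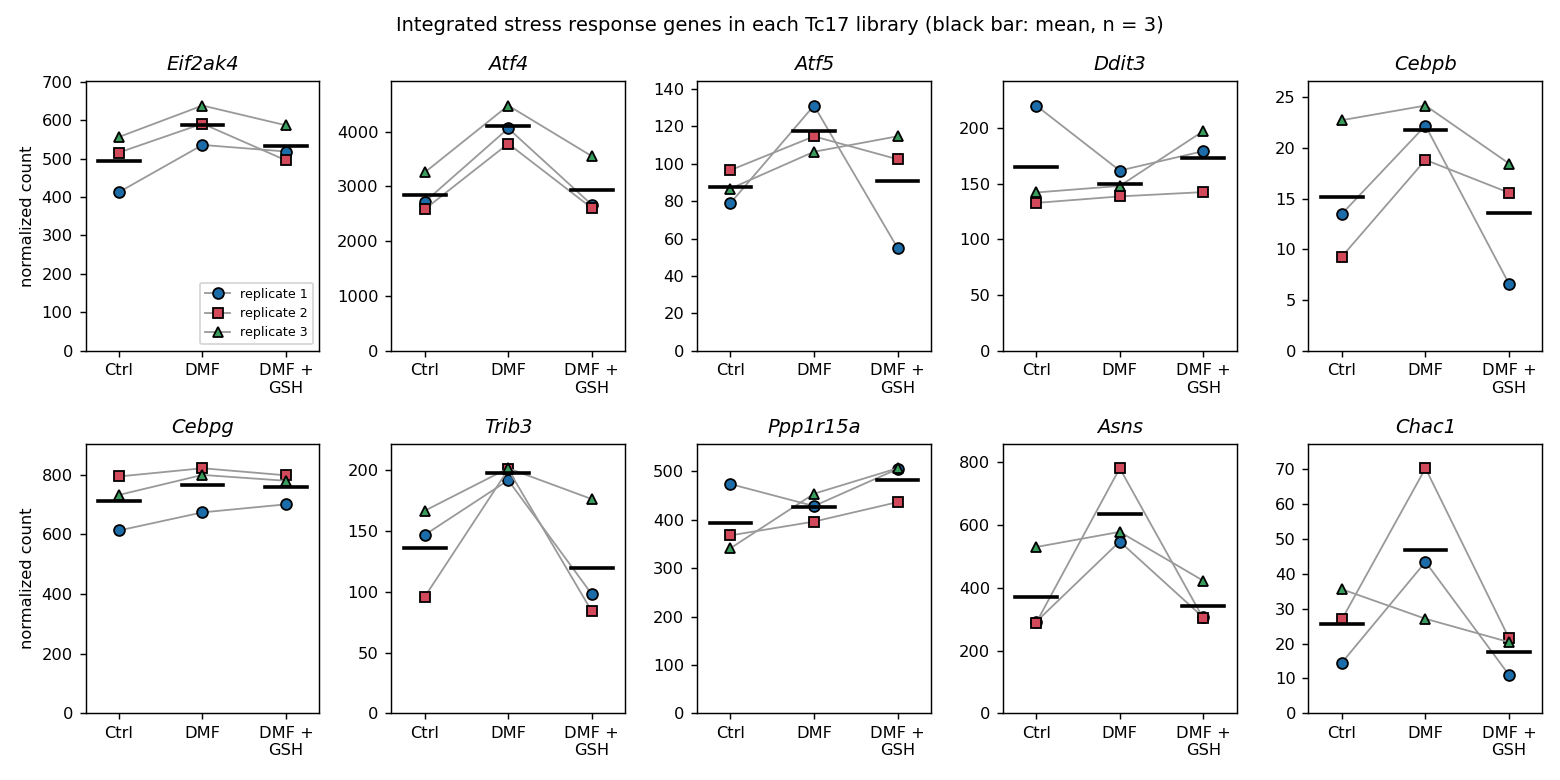
Normalized count (y axis, from 0, linear) of the 10 genes in each of the 9 libraries, by group on the x axis. Circles, squares and triangles are replicates 1, 2 and 3, grey lines join libraries with the same number, and black bars are group means (n = 3). Every DMF library lies above every Ctrl library for Atf4, Atf5, Trib3 and Asns.

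Eif2ak4 encodes GCN2, the eIF2 kinase that is activated by uncharged tRNA. The gene lies at chr2:118388618-118475234 (plus strand; GRCm38, as all gene positions here). Its normalized counts in replicates 1, 2 and 3 were 412.6, 515.6 and 556.0 in Ctrl, 535.3, 590.7 and 637.8 under DMF and 518.2, 495.2 and 586.3 with DMF + GSH. The DMF library was the highest of its replicate number in each case, but the groups overlapped. The log2FC of DMF against Ctrl was 0.26 ± 0.08 (SE), with an adjusted p of 0.0764 in the batch fit and 0.0131 in the paired fit of limma, so the kinase was not called. It was called in the paired fit of limma without DMF + GSH replicate 1 (adjusted p = 0.00716). Adding GSH to DMF gave a log2FC of -0.14 ± 0.08 (paired fit, adjusted p = 0.168), which was -0.069 without DMF + GSH replicate 2 and -0.22 without DMF + GSH replicate 1.

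Atf4 (chr15:80255184-80257541, plus strand) encodes the transcription factor at the center of the pathway. Its normalized counts were 2717, 2582 and 3255 in Ctrl, 4060.5, 3781 and 4477 under DMF and 2666, 2605 and 3553 with DMF + GSH. Each DMF library exceeded each library of both other groups. The replicates responded evenly, with a DMF-Ctrl difference of 0.58, 0.55 and 0.46 log2 units in replicates 1, 2 and 3. The group means were 2851 ± 356 (SD, n = 3) in Ctrl, 4106 ± 350 with DMF and 2941 ± 531 with DMF + GSH. The log2FC of DMF against Ctrl was 0.53 ± 0.06 (SE), called in the paired fit (adjusted p = 5.17e-07 in limma) and by DESeq2 (adjusted p = 0.00122), but not in the batch fit, where the SE was 0.13 and the adjusted p 0.0157. Over 31 alternative settings the adjusted p ranged from 2.75e-07 to 0.0959. In the paired fit Atf4 stayed called in all 9 sets that left out 1 library (highest adjusted p of limma, 2.17e-05), and in the batch fit it was called without Ctrl replicate 3 (adjusted p = 0.00914), DMF replicate 2 (0.00982) or DMF + GSH replicate 3 (0.00596).

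Atf5 (chr7:44812256-44816658, minus strand) encodes a relative of ATF4 with a similar translational control. In Ctrl, its normalized counts were 78.99, 96.61 and 86.74, compared to 131.2, 114.7 and 106.5 with DMF, and these groups did not overlap. With DMF + GSH they were 55.01, 102.5 and 114.7, a spread that included all Ctrl values. The log2FC of DMF against Ctrl was 0.42 ± 0.19 (SE; paired fit of limma, adjusted p = 0.087) and was not called, and without DMF replicate 1 it was 0.14 (adjusted p = 0.611). The exons of Atf5 overlap those of Il4i1 and Nup62 on the other strand. Il4i1 had a normalized count of at most 23.3. The annotated identifier of Nup62 was absent from the RNA-Seq table, so its level is not known here. Since the library kit does not mark strand, reads of these genes cannot be told apart where they overlap.

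Ddit3 (chr10:127290774-127296288, plus strand) encodes CHOP, which drives the late, pro-apoptotic arm of the response. The normalized counts of Ddit3 were 220.3, 132.8 and 142.2 in Ctrl, 161.9, 138.7 and 148.1 under DMF and 179.3, 142.5 and 197.4 with DMF + GSH. Ctrl replicate 1 was the highest of all 9 libraries, and the groups overlapped in each comparison. With a log2FC of -0.11 ± 0.14 (SE; paired fit of limma, adjusted p = 0.551), it was the only 1 of the 10 genes with an estimate below 0, and without Ctrl replicate 1 the estimate was 0.07. Exons of Ddit3 overlap Mars, a tRNA charging gene on the other strand with normalized counts of 1812 to 3114, and reads of these genes cannot be told apart there either.

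Cebpb and Cebpg encode C/EBPβ and C/EBPγ, which form dimers with ATF4. Cebpb (chr2:167688915-167690418, plus strand) was barely expressed, with 13.51, 9.289 and 22.75 normalized counts in Ctrl, 22.22, 18.83 and 24.2 under DMF and 6.601, 15.59 and 18.47 with DMF + GSH. These values rest on 6 to 25 reads per library. The highest Ctrl value of Cebpb was that of replicate 3, the library with the high myeloid markers, and their part in it was not tested. Its log2FC with DMF was 0.57 ± 0.35 (SE; paired fit of limma, adjusted p = 0.198), and was not called. It was 0.72 without that library (adjusted p = 0.183), 0.26 without Ctrl replicate 2 (0.648) and 0.33 without DMF replicate 1 (0.574). Cebpg (chr7:35046422-35056573, minus strand) was well expressed, with 613.2, 794.2 and 732.3 in Ctrl, 673.9, 821.8 and 799.4 under DMF and 700.8, 798.1 and 779.8 with DMF + GSH. The log2FC of Cebpg with DMF was 0.10 ± 0.07 (SE; paired fit of limma, adjusted p = 0.211), and the groups overlapped. Cebpb exons overlap Tmem189 on the other strand, which had normalized counts of 442 to 587, and reads of both cannot be told apart there.

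Trib3 and Ppp1r15a act as brakes. Trib3 (chr2:152337422-152344032, minus strand) encodes a pseudokinase that binds ATF4 and CHOP and restrains them. The libraries held 146.5, 95.68 and 166.4 in Ctrl, 191.5, 200.3 and 201.3 under DMF and 97.92, 83.89 and 176.0 with DMF + GSH (normalized counts). The DMF libraries lay within a narrow range above all others, whereas both other groups were spread widely (SD of 36.5 in Ctrl, 5.40 with DMF and 49.6 with DMF + GSH). The DMF-Ctrl difference was 0.38, 1.06 and 0.27 log2 units in replicates 1, 2 and 3. Trib3 rose by 0.57 ± 0.17 (SE) in the paired fit (adjusted p = 0.00866 in limma), while the batch fit (adjusted p = 0.145) and DESeq2 (0.141) did not call it. This call was lost when Ctrl replicate 2 (adjusted p = 0.0834 in the paired fit of limma), Ctrl replicate 3 (0.0323), DMF replicate 1 (0.0303) or DMF replicate 2 (0.124) was left out. Its log2FC lay between 0.31 (batch fit, without Ctrl replicate 2) and 0.80 with 1 library left out from either fit. The adjusted p of Trib3 ranged from 0.00199 to 0.455 over all 31 settings.

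Ppp1r15a (chr7:45522916-45526268, minus strand) encodes GADD34, which directs a phosphatase to eIF2 and so restores translation. The normalized counts of Ppp1r15a were 473.9, 367.9 and 341.3 in Ctrl, 428.5, 396.4 and 453.9 under DMF and 505.0, 436.5 and 506.6 with DMF + GSH. DMF libraries lay within the range of Ctrl (log2FC 0.12 ± 0.09 (SE), adjusted p = 0.305 in the paired fit of limma). In that fit the estimate was -0.014 without Ctrl replicate 3, the library that stood apart, and 0.24 without Ctrl replicate 1. The highest values of this gene were found with DMF + GSH and not with DMF, unlike those of Atf4 or Trib3.

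Asns and Chac1 carry out the response. Asns (chr6:7675169-7693254, minus strand) encodes asparagine synthetase, a classical ATF4 target. Its normalized counts were 292.0, 288.9 and 530.4 in Ctrl, 548.0, 781.6 and 578.8 under DMF and 305.9, 302.9 and 423.0 with DMF + GSH. Ctrl replicate 3 was far above the other Ctrl libraries and close to the DMF library of the same number, so that the DMF-Ctrl difference was 0.91, 1.43 and 0.13 log2 units in replicates 1, 2 and 3. Asns rose by 0.82 ± 0.15 (SE) in the paired fit (adjusted p = 0.000197 in limma) and was called by DESeq2 (0.00195), but not in the batch fit (0.0204). Leaving out Ctrl replicate 3 raised its log2FC to 1.08 in the batch fit (adjusted p = 0.00436 in limma). Over the 31 settings the adjusted p of Asns ranged from 9.04e-06 to 0.0999, and it stayed called in all 9 sets of the paired fit that left out 1 library.

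Chac1 (chr2:119351229-119354381, plus strand) encodes a γ-glutamylcyclotransferase that degrades glutathione. Its normalized counts were 14.55, 26.94 and 35.55 in Ctrl, 43.38, 70.20 and 27.10 under DMF and 11, 21.53 and 20.42 with DMF + GSH, resting on 10 to 82 reads per library. DMF replicate 3 lay below Ctrl replicate 3, whereas in replicates 1 and 2 DMF was higher by 1.51 and 1.35 log2 units. The mean log2FC of Chac1 was 0.83 ± 0.32 (SE; paired fit of limma, adjusted p = 0.0409) and was not called. Without Ctrl replicate 3 it was 1.20 and called in the paired fit (adjusted p = 0.00973 in limma), while without DMF replicate 1 it was 0.51 (adjusted p = 0.287) and without DMF replicate 3 it was 1.36 (adjusted p = 0.00151). The adjusted p of Chac1 ranged from 0.00151 to 0.438 over 30 settings.

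Counted over the 10 genes, DMF libraries did not overlap Ctrl and were higher for 4 (Atf4, Atf5, Trib3 and Asns), as they were for 21.6% of all genes, and lower for 0, beside 19.8% of all genes. DMF was higher in all 3 replicate numbers for 7 of the 10, namely these 4 with Eif2ak4, Cebpb and Cebpg, beside 34.3% of all genes, and lower in all 3 for 0, beside 32% of all genes. Without Ctrl replicate 3, the batch fit called 2 (Atf4 and Asns) and the paired fit 3, with Chac1 in place of Trib3. Of all genes, 6.94% were then called higher in the batch fit and 14.2% in the paired fit.

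**Figure D2:**
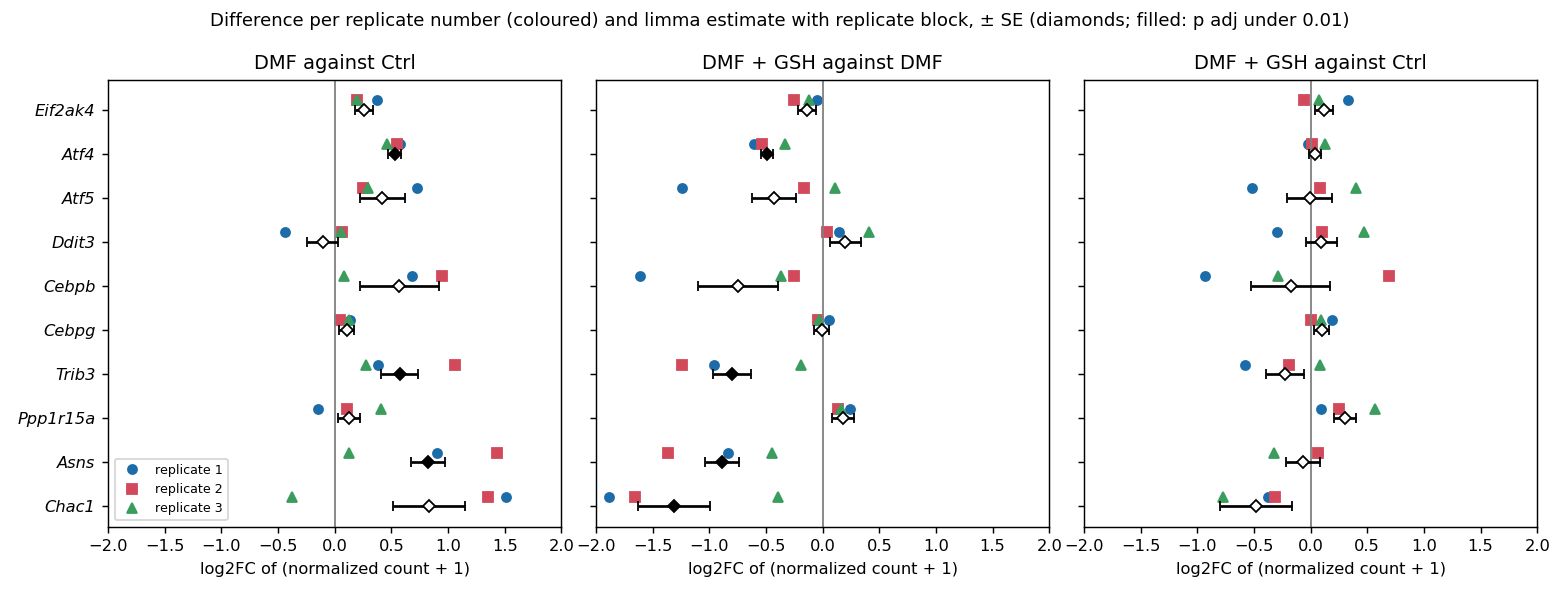
Differences on the log2(normalized count + 1) scale (x axis) for the 10 genes in 3 comparisons. Coloured symbols are the difference within each replicate number, diamonds are the paired limma estimate ± SE, and filled diamonds mark an adjusted p under 0.01. Atf4, Trib3 and Asns are filled in the left panel, Atf4, Trib3, Asns and Chac1 in the middle panel, and none in the right panel.

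DMF + GSH was then compared with DMF. No group received GSH without DMF, so an effect of GSH by itself and a reversal of the DMF effect cannot be told apart. This comparison uses the same DMF libraries as the previous one, so the values are not independent of it. Atf4, Trib3, Asns and Chac1 fell in the paired fit, to 0.711, 0.574, 0.541 and 0.403 times their level with DMF alone. The other 6 genes were not called. Here too the batch fit called 0 of the 10 genes, with 4 at an unadjusted p under 0.05, beside 4392 of all 11599 genes. edgeR with the batch called 0 and DESeq2 called 3 (Atf4, Asns and Chac1). Of all genes, 0.405% were called lower by the batch fit, 15.6% by the paired fit and 7.13% by DESeq2, while 0.414% and 13.7% were called higher by the batch and the paired fit, beside 0 of the 10. The median log2FC of the 10 genes was -0.46, beside -0.0017 over all genes.

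Atf4 fell by 0.49 ± 0.06 (SE) log2 units (paired fit of limma, adjusted p = 1.53e-06), with differences of -0.61, -0.54 and -0.33 in replicates 1, 2 and 3. Its adjusted p was 0.0247 in the batch fit, 0.00385 with DESeq2 and between 1.23e-06 and 0.139 over 31 settings. Asns fell by 0.89 ± 0.15 (adjusted p = 0.000109 in the paired fit of limma, 0.0201 in the batch fit), with differences of -0.84, -1.36 and -0.45. Both genes stayed called in all 9 sets of the paired fit that left out 1 library. For Asns the settings spanned an adjusted p of 6.96e-06 to 0.114. The batch fit of limma called Asns without Ctrl replicate 3 (adjusted p = 0.00826) and Atf4 without DMF + GSH replicate 3 (0.00627).

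Trib3 fell by 0.80 ± 0.17 (SE; adjusted p = 0.000739 in the paired fit of limma, 0.0614 in the batch fit, 0.000187 to 0.245 over 31 settings). The differences were -0.96, -1.25 and -0.19 log2 units, so that replicate 3 showed the smallest fall. Its call was lost without DMF replicate 2 (adjusted p = 0.0124 in the paired fit of limma) or DMF + GSH replicate 1 (0.0109), and without DMF + GSH replicate 3 the batch fit called it as well (0.00758). Chac1 decreased by 1.31 ± 0.32 (SE; adjusted p = 0.00269 in the paired fit of limma, 0.0315 in the batch fit, 0.000145 to 0.182 over 30 settings), the largest of the 10 estimates. Replicates 1 and 2 differed by -1.89 and -1.66 and replicate 3 by -0.39. This call of Chac1 was lost without DMF replicate 1 (adjusted p = 0.0414 in the paired fit of limma), DMF replicate 2 (0.0276), DMF + GSH replicate 1 (0.0191) or DMF + GSH replicate 2 (0.0109).

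DMF + GSH libraries lay below all DMF libraries, with no overlap, for 5 of the 10 genes (Atf4, Cebpb, Trib3, Asns and Chac1), as for 20.5% of all genes, and above them for 0, beside 17.8% of all genes. They were lower in all 3 replicate numbers for 6 of the 10, these 5 with Eif2ak4, beside 33.4% of all genes, and higher in all 3 for 2 (Ddit3 and Ppp1r15a), beside 31.9% of all genes. Cebpb showed the difference without being called (log2FC -0.75 ± 0.35 (SE), adjusted p = 0.0972 in the paired fit of limma), and its estimate lay between -1.09 and -0.34 with 1 library left out (lowest size without DMF + GSH replicate 1). Ddit3 (log2FC 0.20 ± 0.14 (SE)) and Ppp1r15a (0.18 ± 0.09) had estimates above 0, with an adjusted p of 0.261 and 0.144 in the paired fit of limma. Without DMF + GSH replicate 3 the estimate of Ddit3 was 0.05 in the paired fit, and without DMF replicate 1 that of Ppp1r15a was 0.10.

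Against Ctrl, DMF + GSH gave 0 called genes among the 10 in both fits of limma, with edgeR and with DESeq2. In the batch fit 1 of the 10 had an unadjusted p under 0.05, beside 222 of all 11599 genes. Over all genes the share called was 0% in the batch fit and 0.0259% in the paired fit. Estimates lay between -0.49 for Chac1 (SE 0.32) and 0.30 for Ppp1r15a (SE 0.09; adjusted p = 0.602 in the paired fit of limma, 1.0 in the batch fit). In the paired fit, leaving out Ctrl replicate 3 moved Chac1 to -0.11 and Ppp1r15a to 0.16, and leaving out Ctrl replicate 1 moved them to -0.68 and 0.42. The estimate of Atf4 was 0.04 ± 0.06 and that of Asns -0.06 ± 0.15. The groups overlapped for all 10 genes, while 2.08% of all genes had every DMF + GSH library above every Ctrl library and 2.39% had the reverse. Within replicate numbers, DMF + GSH was higher than Ctrl in all 3 for Cebpg and Ppp1r15a (2 of 10, beside 11.7% of all genes) and lower in all 3 for Chac1 (1 of 10, beside 14.2%). A p that misses the threshold does not show that the groups were alike.

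Levels can be compared between genes per length, as reads per kilobase of exon scaled to the depth of the library (RPKM, computed here from the recovered reads). In Ctrl, Atf4 had 111.6 ± 13.1 RPKM (SD, n = 3), far above the other 9 genes. Asns (12.5 ± 4.58), Ppp1r15a (12.4 ± 2.24), Cebpg (11.7 ± 1.53), Ddit3 (8.90 ± 2.60), Eif2ak4 (6.13 ± 0.90), Trib3 (5.91 ± 1.55) and Atf5 (4.05 ± 0.42) followed, and from Asns to Atf5 the range of mean ± SD of each gene overlapped that of the next in the order. Chac1 (1.45 ± 0.59) and Cebpb (0.93 ± 0.42) formed the lower end, apart from Atf5 by more than these ranges but not from each other. With DMF, Atf4 reached 158.0 ± 10.9 RPKM and Asns 21.2 ± 4.50, and the range of Asns no longer overlapped that of Ppp1r15a (13.2 ± 0.68). Trib3 (8.45 ± 0.24) then ranked above Ddit3 (7.93 ± 0.60), but their ranges overlapped. With DMF + GSH, Asns was at 11.7 ± 2.26 RPKM and Ppp1r15a at 15.2 ± 1.25.

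**Figure D3:**
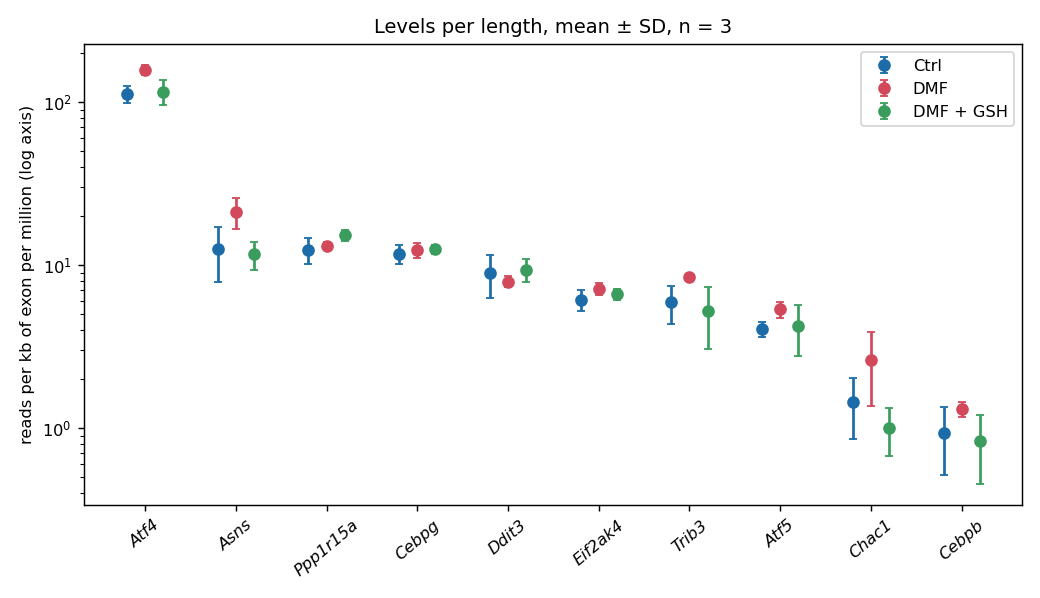
Level per length (y axis, RPKM, logarithmic) of the 10 genes, ordered by their mean in Ctrl on the x axis. Points are means and bars the SD of 3 libraries in Ctrl, DMF and DMF + GSH. Atf4 lies between 111.6 and 158.0 RPKM, and the other 9 genes at 21.2 RPKM or below.

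The wider pathway was described with 8 lists of 99 genes in all, of which 91 were tested. In the paired fit, DMF was higher for 57 and lower for 6 of these 91 genes, and DMF + GSH was lower than DMF for 56 and higher for 5. The batch fit called 16 higher and 0 lower with DMF, and 0 higher and 1 lower with DMF + GSH against DMF. Of all genes, the batch fit called 3.6% higher and 3.6% lower with DMF. For DMF + GSH against DMF these shares were 0.414% higher and 0.405% lower. The batch counts by list below are to be read beside these shares. Without Ctrl replicate 3, the paired fit called 55 higher and 4 lower with DMF and the batch fit 39 and 3, while for DMF + GSH against DMF the paired fit called 56 lower and 5 higher and the batch fit 12 and 1. Without this library the shares of all genes called higher and lower with DMF were 6.94% and 6.1% in the batch fit and 14.2% and 12.8% in the paired fit. For DMF + GSH against DMF, 3.14% and 2.47% were then called lower and higher in the batch fit, and 15.5% and 13.6% in the paired fit. DMF + GSH against Ctrl gave 0 called genes in either fit. By list, the 16 genes that the batch fit called higher with DMF were 2 of 8 eIF2 and eIF2B subunits, 3 of 12 genes of amino acid synthesis, 1 of 9 of transport, 1 of 13 of tRNA charging, 3 of 15 other stress targets and 6 of 19 unfolded protein response genes, with 0 among the kinases and the family relatives. The counts per list below are those of the paired fit, to be read beside the 17.6% and 15.6% of all genes called higher and lower with DMF, and beside the 13.7% and 15.6% called higher and lower with DMF + GSH against DMF.

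Upstream of Atf4, 2 of the 9 eIF2 kinases and regulators were higher with DMF, 1 was lower and 6 were not called (median log2FC 0.07), shares close to those of all genes. Gcn1l1 and Impact, an activator and an inhibitor of GCN2, rose by 0.26 ± 0.05 (SE; adjusted p = 0.000638 in the paired fit of limma) and 0.35 ± 0.09 (0.00386). Eif2ak3, which encodes PERK, the eIF2 kinase of the endoplasmic reticulum, fell by 0.40 ± 0.09 (adjusted p = 0.00152). Normalized counts of Eif2ak3 were 477.0, 510.9 and 391.1 in Ctrl, 335.4, 347.6 and 355.2 under DMF and 552.3, 484.1 and 459.9 with DMF + GSH. No DMF library of Eif2ak3 reached a library of the other groups, and with GSH it was higher than with DMF by 0.52 ± 0.09 (SE; adjusted p = 0.000157 in the paired fit of limma). Of the subunits of eIF2 and of its exchange factor eIF2B, 7 of 8 were higher with DMF (median log2FC 0.34), led by Eif2b3 (0.75 ± 0.09 (SE), adjusted p = 1.23e-06 in the paired fit of limma) and Eif2s1 (0.58 ± 0.06, 2.83e-07), and Eif2b2 was not called. With GSH, 7 of 8 were lower than with DMF.

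Of 9 other C/EBP and ATF family genes 6 were tested, and with DMF 2 were higher and 1 lower (median log2FC 0.01), or 1 and 0 without Ctrl replicate 3. Cebpz rose by 0.42 ± 0.06 (SE; adjusted p = 2.3e-05 in the paired fit of limma) and Atf1 by 0.26 ± 0.07 (0.00709), while Crebzf, which encodes a partner of ATF4, fell by 0.22 ± 0.06 (0.00921). The genes of C/EBPα, C/EBPδ and C/EBPε did not reach the minimum for the test.

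The genes of the next 3 lists make amino acids, carry them into the cell or load them onto tRNAs. For amino acid synthesis 10 of 12 were higher with DMF (median log2FC 0.60), for amino acid transport 7 of 9 (0.62), and for tRNA charging 13 of 13 (0.48), with 0 lower in each. Cth, the cystathionine γ-lyase that makes cysteine, rose by 1.38 ± 0.27 (SE; adjusted p = 0.000366 in the paired fit of limma, 0.00811 in the batch fit). Cth counts were 17.67, 15.79 and 22.75 in Ctrl, 41.26, 68.48 and 43.55 under DMF and 24.20, 19.30 and 24.31 with DMF + GSH, and DMF did not overlap the other groups. The glycine transporter gene Slc6a9 rose by 1.29 ± 0.25 (adjusted p = 0.000343 in the paired fit of limma), with 13.51, 21.37 and 31.28 in Ctrl, 51.84, 49.65 and 56.13 under DMF and 22.00, 22.27 and 38.89 with DMF + GSH. Pycr1, for proline synthesis (0.70 ± 0.18 (SE), adjusted p = 0.00414 in the paired fit of limma), the leucine transporter gene Slc7a5 (0.94 ± 0.08, 2.56e-08), the threonyl-tRNA synthetase gene Tars (0.64 ± 0.06, 1.08e-07) and the tRNA export gene Xpot (0.57 ± 0.06, 8.23e-07) rose as well. Slc7a11, the cystine transporter gene, was too low for the test, with 7.28, 3.72 and 7.11 in Ctrl, 9.52, 11.98 and 13.55 under DMF and 4.40, 2.23 and 3.89 with DMF + GSH. With GSH, 11 of 12 synthesis, 6 of 9 transport and 12 of 13 tRNA charging genes were lower than with DMF. Over the 3 lists together, the paired fit called 30 of 34 higher with DMF, also without Ctrl replicate 3, while the batch fit called 5, or 21 without this library.

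Of the stress effectors outside amino acid supply, 4 of 15 were higher with DMF, 3 were lower and 8 were not called (median log2FC 0.14). Atf3, a stress-induced relative of ATF4, had the largest rise of all 91 genes, 1.86 ± 0.28 log2 units (SE; adjusted p = 2.73e-05 in the paired fit of limma, 0.00794 in the batch fit). Normalized counts of Atf3 were 22.86, 13.93 and 19.91 in Ctrl, 132.2, 42.80 and 60.01 under DMF and 19.80, 14.11 and 28.20 with DMF + GSH, with DMF replicate 1 far above the others. Sesn2, an inhibitor of mTORC1, rose by 0.94 ± 0.13 (adjusted p = 8.74e-06 in the paired fit of limma). Ddit4, another inhibitor of mTORC1, went the other way and fell by 0.93 ± 0.08 (8.55e-08), with 1501, 2659 and 1931 in Ctrl, 667.6, 1613 and 1038 under DMF and 1462, 2249 and 1652 with DMF + GSH. Jdp2, which encodes a repressor of the AP-1 family, fell by 0.80 ± 0.21 (adjusted p = 0.00421 in the paired fit of limma). DMF + GSH was lower than DMF for 7 and higher for 3 of these 15 genes.

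Chaperones of the endoplasmic reticulum and other genes of the unfolded protein response, which PERK shares with the IRE1 and ATF6 arms, were higher with DMF for 12 of 19 and lower for 1 (median log2FC 0.35). Hyou1 rose by 0.62 ± 0.05 (SE; adjusted p = 3.98e-08 in the paired fit of limma, 0.0049 in the batch fit) and Creld2 by 0.60 ± 0.07 (2.69e-06). Hyou1 had 2707, 2709.7 and 3295 normalized counts in Ctrl, 4354, 4216 and 4751 under DMF and 2760.4, 2897 and 3322 with DMF + GSH. The 1 lower gene was Atf6 (-0.35 ± 0.07, adjusted p = 0.000288). With GSH, 11 of 19 were lower than with DMF and 1 was higher.

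The 21 genes named from these lists were picked among genes called with DMF against Ctrl in either fit. That the paired fit of limma called all 21 in this comparison follows largely from this choice. The batch fit called 6 of them (Eif2b3, Eif2s1, Cth, Atf3, Hyou1 and Creld2), and for the other 15 its adjusted p ran from 0.0103 (Ddit4) to 0.102 (Atf1). With 1 library left out, 14 of the 21 stayed called in each paired fit, and 7 lost their call in at least 1. Cth lost it without DMF replicate 2 only (adjusted p = 0.0106 in limma), and Eif2ak3 without Ctrl replicate 2 (0.0287) or DMF replicate 1 (0.0178). Pycr1 lost it without Ctrl replicate 2, DMF replicate 1 or DMF replicate 2, and Impact without replicate 1 or 2 of Ctrl or DMF. Jdp2 was not called in 5, Atf1 in 6 and Crebzf in 8 of the 9 sets. For DMF + GSH against DMF, which shares the DMF libraries used in picking the genes, the paired fit called 17 of the 21. With 1 library left out, 4 of these lost their call (Cth, Slc6a9, Jdp2 and Atf6). The lowest adjusted p of the batch fit of limma was 0.0102 here (Hyou1).

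**Figure D4:**
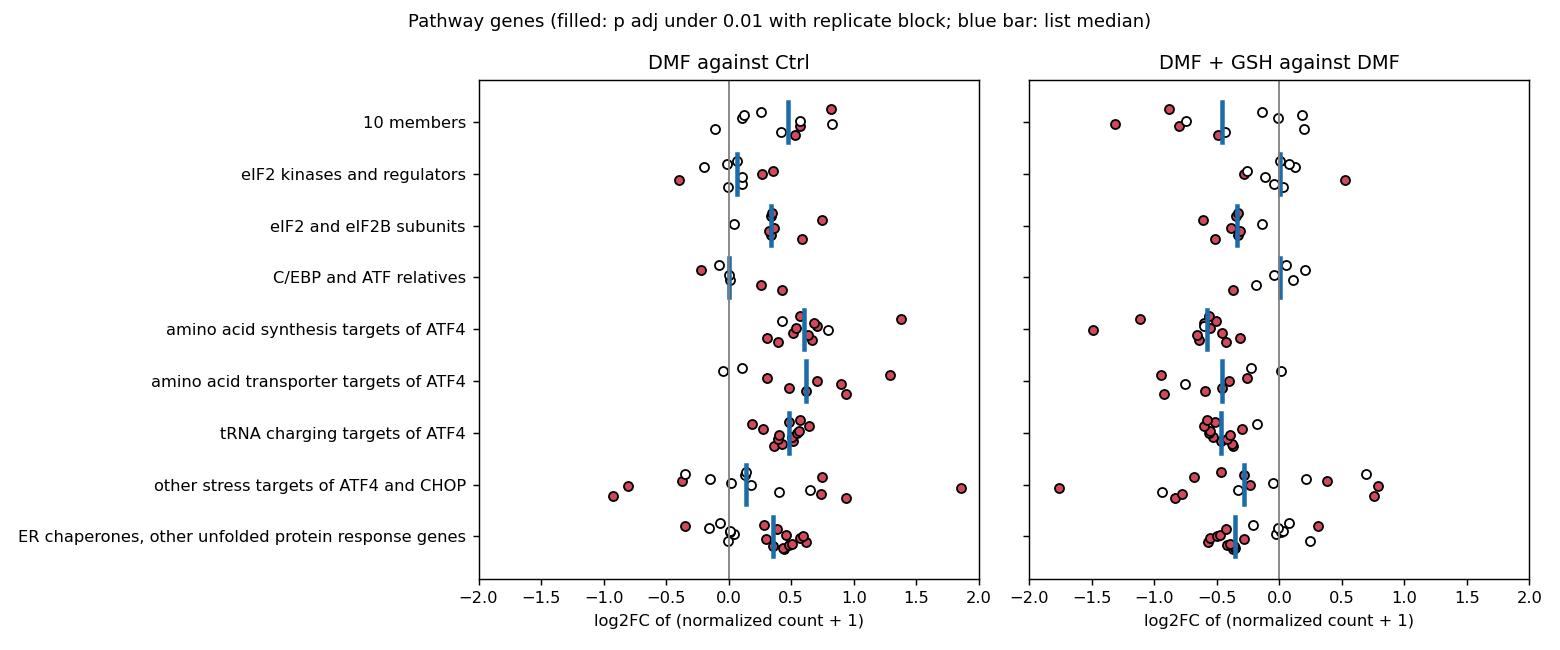
Log2FC (x axis, batch fit, scale of log2(normalized count + 1)) of each tested gene in the 10 genes and the 8 lists. Filled points had an adjusted p under 0.01 in the paired fit, and blue bars are list medians. Medians of the amino acid lists lie at 0.48 to 0.62 with DMF against Ctrl, and that of eIF2 kinases and regulators at 0.07.

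In the promoter windows, the composite element TGATGNAA was present for 5 of 8 tRNA charging genes with a window (Aars, Gars, Iars, Tars and Yars), 6 of 15 other stress targets, 3 of 11 synthesis genes, 2 of 7 transporter genes and 1 of 7 eIF2 and eIF2B genes. It was found for 0 of 6 kinases and regulators, 0 of 6 family relatives and 0 of 16 unfolded protein response genes, beside 4.51% of all genes. Known elements are among the reasons why genes are called ATF4 targets, so these shares are not independent of how the lists were made. The endoplasmic reticulum stress element (CCAAT, any 9 bases, CCACG) occurred for 6 of the 16 unfolded protein response genes, Hspa5, Hsp90b1, Pdia6, Calr, Creld2 and Syvn1, for 1 of 6 kinases and regulators (Dnajc3), for 0 genes of the other lists and for 0 of the 10 genes, beside 0.137% of all genes.

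The genes most like Atf4 were found by Pearson's r over the 9 libraries, on log2 values after subtraction of the mean of each replicate number. These libraries share the 3 treatments, so r largely reflects the contrast of DMF with the other groups. Among the 10 genes, r with Atf4 was 0.886 for Asns, 0.863 for Trib3 and 0.810 for Chac1, followed by Eif2ak4 (0.753), Atf5 (0.745), Cebpb (0.725) and Cebpg (0.449). Ppp1r15a (-0.03) and Ddit3 (-0.35) did not follow it. Over all tested genes, those closest to Atf4 were Nhp2 (0.999), Ltv1 (0.999), Pa2g4 (0.998), Bag1 (0.997) and Fkbp4 (0.997), of which Nhp2, Ltv1 and Pa2g4 serve ribosome production and Bag1 and Fkbp4 are co-chaperones. Nhp2 had normalized counts of 1216 ± 151 (SD, n = 3) in Ctrl, 2245 ± 149 with DMF and 1269 ± 299 with DMF + GSH. The genes closest to Trib3 were Slc35b1 (0.995), Pcyt2 (0.985), Ywhah (0.984), Psmd13 (0.983) and Uhrf1 (0.977).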

How the data were processed

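Murine Tc17 libraries (poly(A), NEBNext Ultra kit, which does not mark strand; single reads of 50 bp; 3 groups of 3) were analysed. The authors aligned reads with STAR 2.4.0b to Ensembl GRCm38 version 76, counted them per gene with featureCounts and fitted groups with DESeq2 and the preparation batch. The deposited signal values are these counts divided by a size factor per library. Dividing by the smallest step gave whole reads for 100% of values above 0 (tolerance 0.01), and depth is their sum: 7671772 to 11589246 in Ctrl, 10382638 to 12669991 with DMF and 9753478 to 14511926 with DMF + GSH. The columns of the authors' own comparison were not used.

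The test was limma-trend 3.58.1 (R 4.3.3) on log2(normalized count + 1) for genes with a mean of at least 10, all 9 libraries in 1 fit, Benjamini-Hochberg adjustment, and calls at an adjusted p under 0.01. edgeR 4.0.16 and DESeq2 1.42.0 were run on the recovered reads. The replicate numbers, given in the labels, paired the libraries: after subtraction of group means, same-numbered libraries correlated over genes with r of 0.447 to 0.578 in 9 pairs, and others with -0.0621 at most. Other alternatives were the pseudocount, the minimum, TMM, quantile normalization, no batch term, robust eBayes, each library left out in turn and a fit of only the 6 libraries of a comparison. List counts without Ctrl replicate 3 were chosen after seeing the data.

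The members and lists were chosen with earlier results of these data known. Named were all members, up to 2 largest called rises and falls per list, and the 5 genes most like Atf4 and Trib3. Positions are from GENCODE release 21 (GRCm38) and promoter windows from RefSeq. Figures used Matplotlib 3.10.9. Samples from patients are not analysed here.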

Additional observations from a re-analysis of the deposited data

How the results depend on the processing

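The number of the 10 genes called with DMF against Ctrl was 0 in the batch fit and under 9 other settings, 1 without a minimum mean, 3 with the replicate block in limma or in edgeR, and 2 with DESeq2. For DMF + GSH against DMF it was 0 in the batch fit, 4 with the replicate block in limma or in edgeR, and 3 with DESeq2. Leaving out 1 library at a time gave 0 to 2 called genes for each of these comparisons in the batch fit and 2 to 4 with the replicate block. For DMF + GSH against Ctrl no setting called a gene. Over all 11599 genes, DMF against Ctrl gave 834 calls in the batch fit, 3848 with the replicate block, 1896 with DESeq2 and 48 from only the 6 libraries compared, and DMF + GSH against DMF gave 95, 3391, 1480 and 5. With 1 library left out, the batch fit gave 2 to 1512 and 0 to 983 calls, and the replicate block 2731 to 4043 and 2314 to 3374. Without a minimum, 26629 genes gave 1162 and 667 calls. No estimate of the 10 genes that was called in either fit turned its sign. For DMF + GSH against Ctrl, leaving out 1 library from the batch fit moved the log2FC of Atf4 between -0.10 and 0.14, Atf5 between -0.17 and 0.32, Ddit3 between -0.075 and 0.27, Trib3 between -0.56 and 0.015, Cebpb between -0.56 and 0.23 and Asns between -0.28 and 0.19. With DMF against Ctrl, that of Ddit3 moved between -0.20 and 0.073, and with DMF + GSH against DMF that of Cebpg between -0.047 and 0.016. Atf5 for DMF + GSH against Ctrl was 0.045 with edgeR, 0.056 with edgeR and the replicate block and 0.032 with DESeq2, and Cebpg for DMF + GSH against DMF was 0.025 with quantile normalization. With the replicate block and 1 library left out, turned signs for DMF + GSH against Ctrl were Atf4 -0.025 (without DMF + GSH replicate 3), Atf5 0.040, 0.010 and 0.32 (Ctrl 1, Ctrl 2, DMF + GSH 1), Ddit3 -0.044 and -0.056 (Ctrl 3, DMF + GSH 3), Cebpb 0.23 (DMF + GSH 1) and Asns 0.18 and 0.023 (Ctrl 3, DMF + GSH 2). Likewise, Cebpg for DMF + GSH against DMF was 0.0056, 0.024 and 0.0015 (DMF 3, DMF + GSH 2, DMF + GSH 3), and for DMF against Ctrl Ddit3 was 0.073 (Ctrl 1) and Ppp1r15a -0.014 (Ctrl 3). The cause of these differences was not tested. Cebpb and Chac1 rest on few reads, 6 to 25 and 10 to 82 per library, and the part of depth in their spread was not tested.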
